A study of Mus musculus with 44 samples.

Results

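p53, the transcription factor encoded by Trp53, and 34 genes of its pathway were followed together through 44 RNA-seq libraries of lineage-traced mouse embryos. The 35 genes were chosen by name, and each name matched a single identifier among the 32287 gene identifiers measured. They were split by what they are known for into the regulator Trp53, 3 feedback genes, 15 apoptosis genes, 7 genes of arrest and growth, 4 repair genes and 5 genes of metabolism and stress. For each gene the deposited level is in TPM, the transcript abundance that StringTie reports, which is scaled for transcript length and for the library.

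GFP+ mESCs (strain G4 in the labels, F1G4 in the study's methods) were aggregated with mCherry+ CD1/G4 morulae, from CD-1 females and mCherry+ males of a colony kept by mating to C57BL/6J, so that the embryo proper carries GFP and the extraembryonic lineages carry mCherry. At E6.5 the wild-type groups were epiblast (Epi, GFP), distal extraembryonic endoderm (exEndo1, mCherry) and proximal extraembryonic endoderm (exEndo2, mCherry), with 4 libraries each of tissue separated by hand from single embryos. At E9.5 the wild-type groups, with 4 libraries each, were EPCAM+ mCherry+ cells of midgut and hindgut (exMidgut and exHindgut, together exGut), EPCAM+ dual-labelled cells that were GFP+ with low mCherry (emMidgut and emHindgut, together emGut) and mCherry+ yolk sac endoderm (YsEndo). At E13.5, with 3 libraries of single embryos each, mCherry+ EPCAM+ cells of the colon (exColon) and small intestine (exSI) were Trp53 KO, and GFP+ EPCAM+ cells of the same organs (emColon and emSI) were wild type.

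Several features of the model limit what a difference can stand for. GFP was driven by CAG from the Rosa26 locus in clonal male mESCs, whereas mCherry was driven by an EF1a transposon in embryos of either sex, so origin, strain background, sex and reporter change together. Each midgut or hindgut library pooled tissue of 4 embryos. The study describes the dual-labelled cells of emGut as embryonic gut cells that took up remnants of dying extraembryonic cells. It states that transcripts carried over in this way can be present and would weaken a difference between exGut and emGut. The Trp53 KO came from electroporating zygotes with Cas9 and guides to Trp53 exons, and the edited sequence of each library was not analysed here. Only extraembryonic cells were KO at E13.5, and wild-type extraembryonic cells of that stage were not analysed here, so origin and genotype cannot be told apart within E13.5. At E13.5 each intestine was divided into colon and small intestine, and KO and wild-type cells were sorted from the same kind of chimeric embryo, so libraries of different organs or origins can share an embryo, and those of E9.5 can share a pool. The labels do not tie libraries to embryos. Every test that joins both organs or both gut regions counts such libraries as separate. Its p-values are too small where a group holds an embryo or pool more than once, and can be too large where the groups compared share one. Where replicate libraries are not stated to come from separate litters, p-values measure the spread between these libraries. In these bulk samples, fewer cells that express a gene and less RNA per cell cannot be told apart.

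p53 is held low in unstressed cells by Mdm2 and Mdm4, and Mdm2 is itself a p53 target, which closes a feedback loop. When p53 is stabilised it raises genes that act at several levels. Cdkn1a, encoding p21, blocks the cell cycle. Bax, Bbc3 (PUMA) and Pmaip1 (NOXA) act at the mitochondrion, and Fas and Tnfrsf10b are death receptors. Further targets repair DNA or tune metabolism. The pathway is well known in the early mouse embryo and in the intestinal epithelium as a brake on damaged cells.

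The promoters of 5 members on which the results turn are shown to place the measurements in sequence. They are RefSeq windows of 300 bases on GRCm38.p6, which shares its coordinates with mm10, running from 250 bases before the start site to 50 bases after it, 5′ to 3′ on the strand of the gene. Capitals mark matches to the p53 decamer consensus, the 10-base unit of which a p53 response element holds a pair. Phlda3 (chr1:135765835-135766134, + strand) and Eda2r (chrX:97377160-97377459, - strand) are 2 of the members with the largest rise in exGut.

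Phlda3: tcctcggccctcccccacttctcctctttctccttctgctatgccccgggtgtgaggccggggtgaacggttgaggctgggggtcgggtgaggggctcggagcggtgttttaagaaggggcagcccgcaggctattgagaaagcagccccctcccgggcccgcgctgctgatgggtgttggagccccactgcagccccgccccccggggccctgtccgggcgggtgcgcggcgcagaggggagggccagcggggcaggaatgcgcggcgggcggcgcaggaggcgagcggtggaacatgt
Eda2r: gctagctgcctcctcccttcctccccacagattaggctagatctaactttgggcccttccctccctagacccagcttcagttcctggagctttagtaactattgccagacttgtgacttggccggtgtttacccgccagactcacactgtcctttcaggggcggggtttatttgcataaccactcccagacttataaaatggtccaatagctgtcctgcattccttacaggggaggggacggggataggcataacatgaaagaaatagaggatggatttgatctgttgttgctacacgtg

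Ccng1 (chr11:40755237-40755536, - strand), Bax (chr7:45466849-45467148, - strand) and Cdkn1a (chr17:29090729-29091028, + strand) each hold at least 1 decamer.

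Ccng1: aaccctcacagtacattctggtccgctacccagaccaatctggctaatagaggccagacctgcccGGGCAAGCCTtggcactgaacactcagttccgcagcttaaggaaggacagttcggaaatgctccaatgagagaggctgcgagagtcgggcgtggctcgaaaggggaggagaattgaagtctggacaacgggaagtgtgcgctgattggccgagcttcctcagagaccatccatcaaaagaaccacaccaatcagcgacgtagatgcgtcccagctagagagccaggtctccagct
Bax: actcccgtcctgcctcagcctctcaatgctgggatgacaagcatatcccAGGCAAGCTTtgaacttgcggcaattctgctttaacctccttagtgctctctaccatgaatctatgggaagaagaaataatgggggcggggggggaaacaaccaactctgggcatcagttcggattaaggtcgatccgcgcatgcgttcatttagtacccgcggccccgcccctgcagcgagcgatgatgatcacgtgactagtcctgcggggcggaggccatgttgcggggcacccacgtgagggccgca
Cdkn1a: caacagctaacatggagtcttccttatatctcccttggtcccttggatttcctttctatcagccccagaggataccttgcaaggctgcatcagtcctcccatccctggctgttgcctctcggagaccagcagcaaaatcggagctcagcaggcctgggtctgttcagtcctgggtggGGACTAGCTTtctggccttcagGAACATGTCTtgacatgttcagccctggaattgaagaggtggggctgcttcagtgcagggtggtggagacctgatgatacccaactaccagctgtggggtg

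Cdkn1a had 2 windows, and the one with the most decamers is shown. It held a pair of decamers 12 bases apart, a stretch of 32 bases. The first base of the pair lies 73 bases before the start site of that window, and whether p53 binds the pair was not tested. Of the 35 members, 27 had at least 1 window in the RefSeq table, and 10 of these held a decamer (37.0%): Trp53, Mdm2, Ccng1, Bax, Ei24, Aen, Cdkn1a, Gadd45a, Polk and Sesn1. Among all 27025 genes with a window the share was 9.55%. Counted by window it was 11 of 39 for the members and 8.36% of all 32851 windows, and a gene with more windows has more chances of a match. A pair of decamers at most 13 bases apart stood in 0.0731% of all windows. The Ddb2, Xpc, Tnfrsf10b, Pmaip1, Trp53inp1, Rrm2b, Perp and Zmat3 windows are not in the table. A match is a description of the letters, both strands were read, and the lack of a match in Phlda3 and Eda2r says only that these letters are not in this window.

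The libraries held 10382 to 13596 genes above 1 TPM, and the 10 most abundant genes took 5.45 to 12.51% of the TPM. Replicates correlated less closely at E13.5, where the mean correlation of a library with the others of its group was 0.844 to 0.908, than at the earlier stages, where it was 0.937 to 0.988. EGFP was at 179.6 to 880 TPM in the GFP+ groups and at most 15.9 TPM in the mCherry+ groups, the highest in exEndo1. mCherry was at 1731 to 8667 TPM in the mCherry+ groups. It was at most 0.822 TPM in Epi and 6.61 TPM in emGut and was listed at 0 in the GFP+ libraries of E13.5. Rhox5, which marks extraembryonic origin, reached 24.1 TPM in emMidgut, against 740 to 1261 TPM in exGut, so low levels of transcripts of the other lineage were present in some groups of E6.5 and E9.5. All 6 gut endoderm markers examined (Epcam, Cdh1, Foxa1, Foxa2, Krt8 and Krt18) were above a mean of 1 TPM in each gut group. Blood and endothelium genes summed to at most 10.99 and 5.64 TPM in a library. Surface ectoderm genes, led by Krt15, summed to 10.6 to 164 TPM in exColon, highest in replicate 1, against 1.89 to 21.4 TPM in emColon. Dppa3, a germ cell gene, reached 224 and 183 TPM in emMidgut replicates 1 and 3 and was listed at 0 in the other emGut libraries. Col3a1, a fibrillar collagen of mesenchyme, reached 203 and 43.9 TPM in emSI replicates 1 and 2. The files give no read counts, but the ratio of read coverage to FPKM, which was the same for nearly all genes with 1 transcript in a library, follows its sequencing depth. By this measure the deepest library, exHindgut replicate 1, had 3.41 times the depth of the shallowest, exHindgut replicate 3. The depth of the libraries relative to that one was 1.86 to 2.77 at E6.5, 1.0 to 3.41 at E9.5 and 1.39 to 3.298 at E13.5.

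The members were widely expressed. Between 31 and 34 of them had a mean above 1 TPM in each of the 12 groups, and the median of the member means ran from 7.73 TPM in YsEndo to 40.7 TPM in exHindgut. The heat map of all members and libraries shows Bax with the highest mean in every group and Fas at most 9.73 TPM in every library, whereas the rank of Cdkn1a and Plk3 differed between groups.

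**Figure D1:**
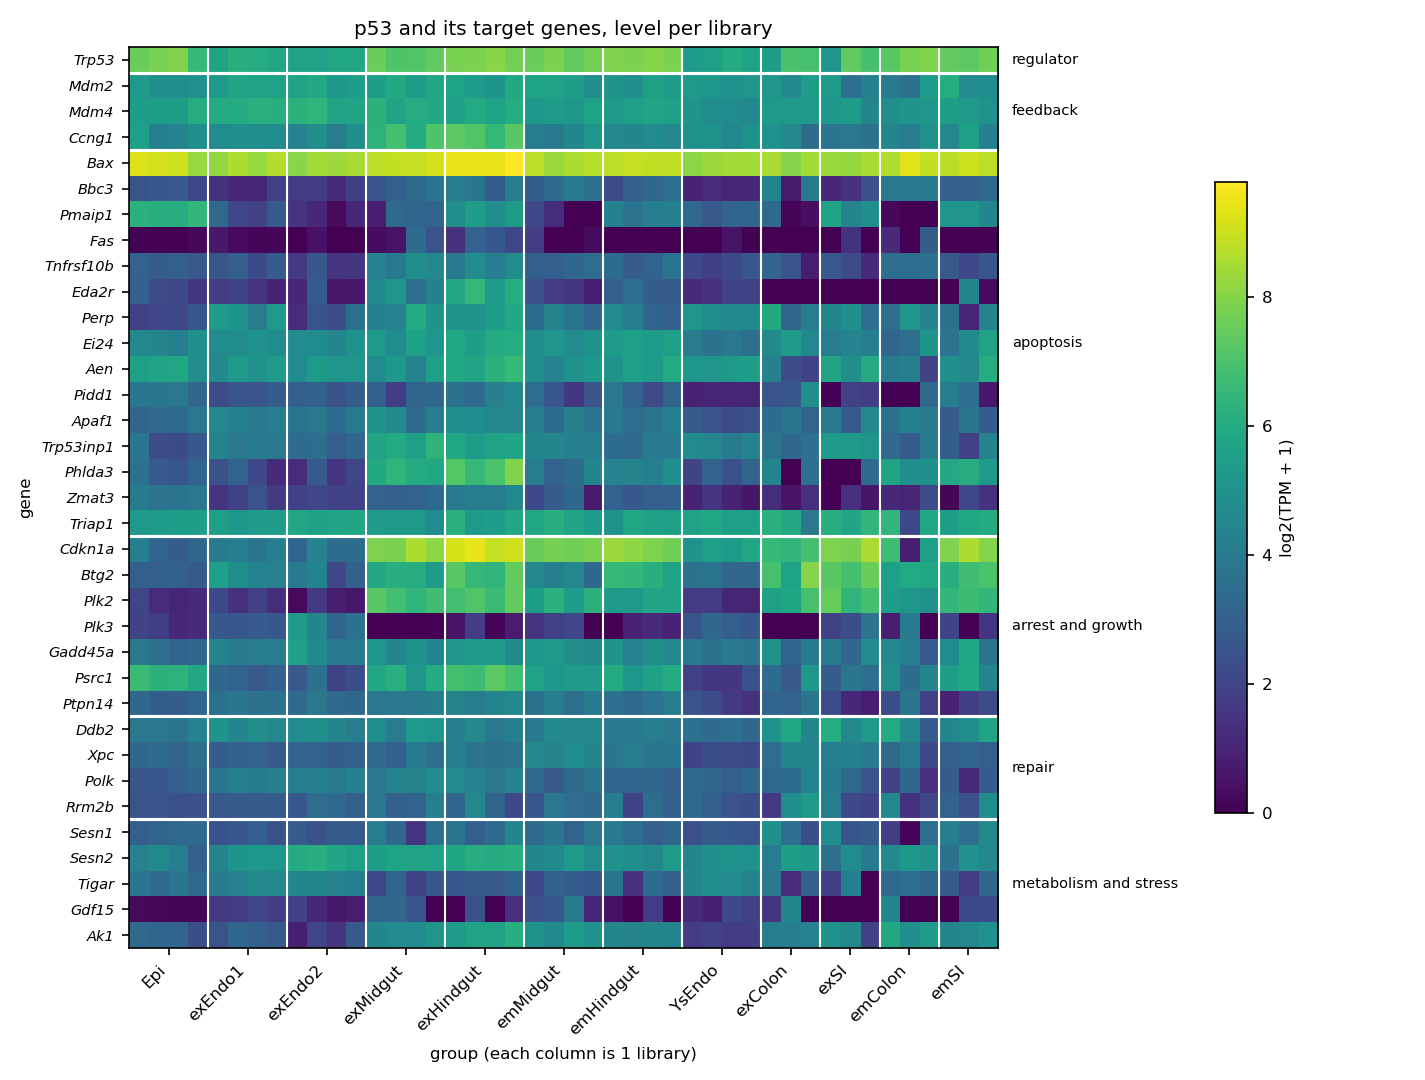
Level of each of the 35 genes (rows, ordered by role) in each of the 44 libraries (columns, by group) as log2(TPM + 1), from 0 in dark purple to the highest level in yellow. The exMidgut and exHindgut columns are brighter than the emMidgut and emHindgut columns for Ccng1, Eda2r, Trp53inp1 and Phlda3, and the E13.5 columns vary most within groups.

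Trp53 (ENSMUSG00000059552, chr11:69580359-69591873 on mm10, + strand) was abundant throughout. Its level at E9.5 was 136 to 259 TPM in exGut (median 197) and 170 to 256 TPM in emGut (median 230), so the libraries overlapped. By group, Trp53 stood highest in emHindgut (238 ± 12.8 TPM, SD, n = 4), exHindgut (231 ± 20.8), emColon (207 ± 49.4, n = 3), emMidgut (199.9 ± 27.6) and Epi (189 ± 67.9), and these neighbours overlapped within their spread. It was lowest in exEndo1 (60.9 ± 8.73 TPM), exEndo2 (52.4 ± 4.24) and YsEndo (50.4 ± 9.77), the 3 wild-type groups of extraembryonic endoderm outside the gut.

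The first comparison asked whether wild-type gut cells of extraembryonic origin differ in this pathway from their embryonic neighbours at E9.5. Of the 35 members, 9 were called higher in exGut and 0 were called lower, where a call needs an adjusted p under 0.05 and a log2 fold change beyond 1 in limma. Over all 13473 genes tested, 1.08% were called higher and 1.27% lower. The 9 were Ccng1, Fas, Tnfrsf10b, Eda2r, Perp, Trp53inp1, Phlda3, Plk2 and Polk. Called or not, 29 of the 35 members lay on the higher side, as did 47.0% of all genes, and the median log2 difference was 0.52 beside -0.03 for all genes. This fit pools the regions. With gut region as a covariate 12 members were called higher and 0 lower, the same 9 with Pmaip1, Zmat3 and Btg2, beside 1.94% and 2.42% of all genes. Ccng1, Phlda3, Trp53inp1 and Perp were picked by the study from these same libraries as genes high in exGut, so their direction is not independent evidence.

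Among the feedback genes, Ccng1, encoding cyclin G1, which recruits a phosphatase to Mdm2, changed most. Its level was 63.0 to 158 TPM in exGut (median 125) and 14.6 to 33.4 TPM in emGut (median 22.1). Every exGut library therefore lay above every emGut library, and the mean was 5.24-fold higher (log2 difference 2.31, SE 0.20, adjusted p = 4.1e-07). Mdm2, the ubiquitin ligase that degrades p53, was at 48.1 ± 10.3 TPM against 39.7 ± 9.42 (SD, n = 8 each) and was not called, with a log2 difference of 0.28 (95% interval -0.07 to 0.63) and an adjusted p of 0.44. Mdm4, the partner of Mdm2 that masks the p53 activation domain, was at 59.6 ± 9.85 against 43.1 ± 5.94 TPM and was below the fold threshold (log2 difference 0.45, adjusted p = 0.046).

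Of the 15 apoptosis genes, 6 were called higher and 0 lower, and their median log2 difference was 1.07. Eda2r, a receptor of the TNF receptor family on the X chromosome, spanned 11.3 to 91.1 TPM in exGut (median 36.4) and 0.667 to 10.1 TPM in emGut (median 5.15). The lowest exGut library was above the highest emGut library, and the mean was 8.91-fold higher (log2 difference 2.86, SE 0.43, adjusted p = 4.0e-04). Phlda3, which competes with Akt for membrane lipids and so lowers survival signalling, spanned 55.3 to 243 TPM in exGut (median 87.3) and 7.47 to 28.1 TPM in emGut (median 18.5). These ranges did not overlap either, and the mean was 6.21-fold higher (log2 difference 2.48, SE 0.30, adjusted p = 3.4e-05).

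Trp53inp1, a nuclear stress protein that promotes p53-dependent death, was at 41.9 to 81.8 TPM in exGut and 9.03 to 21.3 TPM in emGut, with no overlap and a 3.44-fold higher mean (log2 difference 1.74, SE 0.19, adjusted p = 6.9e-06). The death receptor Tnfrsf10b was at 14.3 to 28.1 against 6.11 to 12.7 TPM, again without overlap (2.45-fold, log2 difference 1.19, SE 0.20, adjusted p = 0.0011). Perp, a desmosomal membrane protein first found as a p53 apoptosis effector, overlapped between the groups, at 18.9 to 61.5 TPM in exGut and 6.69 to 25.2 TPM in emGut (log2 difference 1.40, SE 0.30, adjusted p = 0.0086). Fas was low in every library and entered the test only through exGut, where 6 libraries were above 1 TPM against 1 in emGut, so its call is no support for the members. It was at 0.262 to 9.73 TPM in exGut (median 3.99), was listed at 0 in 6 of 8 emGut libraries, and had a log2 difference of 1.75 (SE 0.44, adjusted p = 0.031). With the replicate number as a block its adjusted p was 0.059, and the call was lost when any 1 of 11 libraries was left out: all 4 of emHindgut, emMidgut replicates 2 and 3, exHindgut replicates 2, 3 and 4, and exMidgut replicates 3 and 4 (adjusted p over all alternatives 0.00947 to 0.0606).

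Bax, the pore-forming effector, was the most abundant member at 621 ± 153 TPM in exGut and 426 ± 54.2 in emGut (SD, n = 8 each), a log2 difference of 0.52 that passed the adjusted p (0.037) but not the fold threshold. Bbc3 was at 10.9 ± 4.71 against 9.23 ± 3.60 TPM. Pmaip1 was at 20.3 ± 15.9 against 8.79 ± 8.38 TPM, with the hindgut libraries above the midgut libraries of the same origin, and was called only with gut region as a covariate (log2 difference 1.39, adjusted p = 0.39 without and 0.019 with it). Apaf1, the apoptosome scaffold, was at 22.6 ± 6.75 against 14.3 ± 3.25 TPM (adjusted p = 0.16). Zmat3, an RNA-binding target, was at 12.6 ± 5.79 against 5.71 ± 2.55 TPM (log2 difference 1.07, adjusted p = 0.115, and 0.020 with gut region as a covariate). The remaining genes of this role, Ei24, Aen, Pidd1 and Triap1, had mean ratios of 1.27, 1.37, 1.59 and 0.89 and were not called. These examples beyond the called genes were chosen after their values were seen.

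In the arrest and growth role, 1 of 7 genes was called. Plk2, a polo-like kinase of the stress response, was at 86.0 to 169 TPM in exGut and 37.1 to 76.4 TPM in emGut, without overlap (2.38-fold, log2 difference 1.25, SE 0.17, adjusted p = 0.00014). Cdkn1a was the most abundant gene of this role, at 225 to 701 TPM in exGut (median 434) and 181 to 312 TPM in emGut (median 219). Its ranges overlapped, and the log2 difference of 0.80 (SE 0.22, adjusted p = 0.045) did not reach the fold threshold. Btg2, an anti-proliferative gene, was at 90.9 ± 45.2 against 46.2 ± 33.1 TPM, and Psrc1, a mitotic spindle gene, was at 90.2 ± 39.8 against 46.8 ± 11.8 TPM. Neither was called over both regions together (adjusted p = 0.14 and 0.076). With gut region as a covariate Btg2 was called (log2 difference 1.2002, adjusted p = 0.0011), whereas Psrc1 (0.84, adjusted p = 0.0034) and Cdkn1a (0.80, adjusted p = 4.0e-04) missed only the fold threshold. The mean ratios of the remaining genes of this role were 1.09 for Gadd45a, 1.32 for Ptpn14 and 0.339 for Plk3, none of them called.

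Repair and metabolism held 1 call between them. Polk, a translesion DNA polymerase, was the 1 called gene of the 4 repair genes, at 13.51 to 25.5 TPM in exGut and 5.67 to 12.7 TPM in emGut, without overlap (2.28-fold, log2 difference 1.10, SE 0.19, adjusted p = 0.0015). The damage recognition genes Ddb2 and Xpc had log2 differences of 0.30 and -0.55 and were not called, and Rrm2b, a ribonucleotide reductase subunit, had a mean ratio of 1.15. None of the 5 metabolism and stress genes was called, with 1 of them under an adjusted p of 0.05 and 2 under an unadjusted p of 0.05 in limma, where 16.5% of all genes lay. That gene, Sesn2, a sestrin that restrains mTORC1, was at 43.2 to 70.1 TPM in exGut and 21.4 to 40.8 TPM in emGut, without overlap, and missed the fold threshold at a log2 difference of 0.95 (adjusted p = 0.00073). Sesn1, Tigar, Gdf15 and Ak1 had mean ratios of 1.05, 0.821, 0.982 and 1.49. In all, 8 members had every exGut library above every emGut library and 0 had the opposite, beside 0.661% and 0.750% of all genes. Exact two-sided permutation of the 16 libraries, which takes them as independent, gave p = 0.00606 for Cdkn1a, 0.181 for Trp53 and 0.118 for Mdm2.

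**Figure D2:**
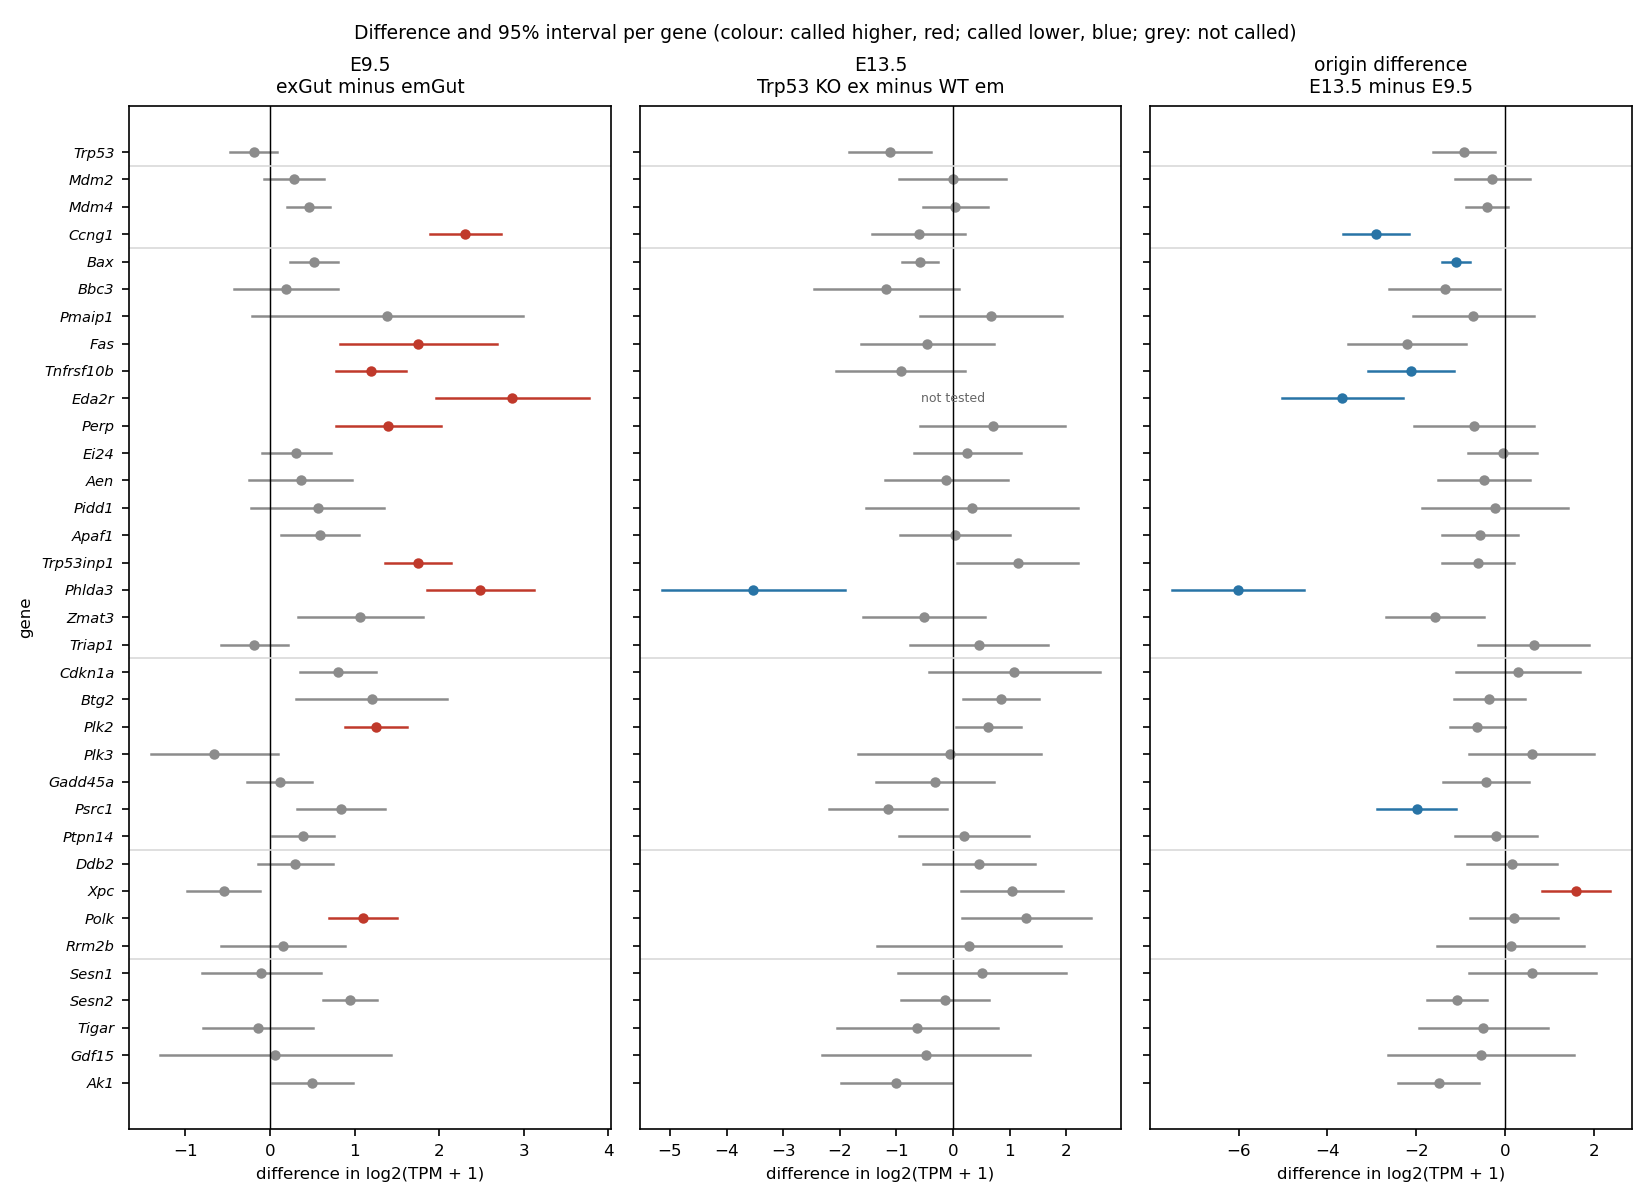
Difference in log2(TPM + 1) with its 95% interval for each of the 35 genes (rows, ordered by role) in 3 comparisons: exGut minus emGut at E9.5, Trp53 KO ex minus wild-type em at E13.5, and the second minus the first. Red points were called higher, blue points lower and grey points not called; 9 genes are red in the left panel, 1 is blue in the middle panel, and 6 are blue and 1 red in the right panel.

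Other expression moved with origin in the same libraries. The 6 yolk sac endoderm genes (Afp, Apoa1, Apob, Ttr, Amn and Cubn) summed to 5794 to 11961 TPM in exMidgut and 873 to 1538 TPM in emMidgut, and to 29.8 to 655 TPM in exHindgut and 4.14 to 40.9 TPM in emHindgut. In the midgut the 4 neural genes summed to 10.3 to 57.4 TPM in emMidgut and 0 to 3.95 TPM in exMidgut, with Stmn2 called lower, and they were at most 0.659 TPM in every hindgut library. Of the mesenchyme genes, Dcn was called higher in exMidgut and Twist1 lower in exHindgut. The part of these markers in the p53 result was not tested. The 9 calls stood when emMidgut replicates 1 and 3, the libraries with Dppa3, were left out, an alternative chosen after seeing the data. Of the rest of the pathway, 1 of 19 upstream regulators and cofactors tested was called higher, 0 of 9 caspases and their activators, 0 of 10 cell cycle genes lowered through p21 (median log2 difference -0.54), 0 of 10 immediate early genes (median 0.58) and 0 of 5 integrated stress response genes. By region, 1 of 10 immediate early genes was called higher in exMidgut and 0 in exHindgut. These genes summed to 729 to 1242 TPM in exMidgut and 482 to 871 TPM in emMidgut. In the hindgut they summed to 1449 to 2177 TPM in exHindgut and 925 to 1349 TPM in emHindgut, without overlap. Their part in the values of the members was not tested. The 1 upstream gene was Cdkn2a, whose Arf product inhibits Mdm2. It was at 323 ± 144 TPM in exGut and 8.82 ± 9.02 TPM in emGut (SD, n = 8 each; log2 difference 5.62, adjusted p = 2.2e-06), and a level per gene does not tell its Arf and Ink4a transcripts apart.

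Within each region every called member was higher in cells of extraembryonic origin, and the number called differed. In the midgut 9 of 33 members tested lay on the lower side, and in the hindgut 3 of 33. The sets differ by Gdf15, tested in the midgut alone, and Fas, tested in the hindgut alone. Of the members tested in both, Ak1, Bbc3, Gadd45a, Sesn1 and Triap1 had opposite signs in the regions, lower in the midgut and higher in the hindgut. In the midgut 7 of 33 members tested were called higher (Ccng1, Tnfrsf10b, Eda2r, Trp53inp1, Phlda3, Btg2 and Plk2) and 0 lower, beside 1.23% and 1.35% of all genes. Of these members, Eda2r passed the filter only through exMidgut. In the hindgut 14 of 33 were called higher and 0 lower, beside 1.37% and 1.70% of all genes. The 14 were Ccng1, Fas, Tnfrsf10b, Eda2r, Perp, Trp53inp1, Phlda3, Zmat3, Cdkn1a, Plk2, Psrc1, Polk, Sesn2 and Ak1. With 4 libraries against 4, exact permutation cannot go below 0.0286. The log2 differences in the midgut, with the adjusted p of limma, were Ccng1 2.15 (SE 0.29, 5.2e-04), Tnfrsf10b 1.29 (SE 0.31, 0.031), Eda2r 2.78 (SE 0.44, 0.0026), Trp53inp1 1.55 (SE 0.22, 0.0011), Btg2 1.71 (SE 0.29, 0.004) and Plk2 1.01 (SE 0.24, 0.028). Fas was listed at 0 in all 4 emHindgut libraries and at 1.65, 7.46, 5.53 and 3.25 TPM in exHindgut, so it entered the test only through exHindgut and no fold is given. Those of the hindgut among the other feedback and apoptosis genes were Ccng1 2.47 (SE 0.18, 7.7e-07), Tnfrsf10b 1.10 (SE 0.30, 0.044), Eda2r 2.94 (SE 0.27, 8.1e-06), Perp 1.59 (SE 0.36, 0.019), Trp53inp1 1.94 (SE 0.23, 1.4e-04) and Zmat3 1.26 (SE 0.26, 0.012). Those of the other roles there were Plk2 1.497 (SE 0.18, 1.7e-04), Psrc1 1.24 (SE 0.20, 0.002), Polk 1.17 (SE 0.26, 0.018), Sesn2 1.07 (SE 0.19, 0.0042) and Ak1 1.26 (SE 0.19, 0.0014). Some of these calls rested on single libraries. Tnfrsf10b was lost without emMidgut replicate 1, 2 or 3 or exMidgut replicate 3 or 4 in the midgut, and without emHindgut replicate 1, 2 or 3 or exHindgut replicate 2, 3 or 4 in the hindgut. The hindgut call of Tnfrsf10b was also lost with the replicate block (adjusted p = 0.0526), a pseudocount of 0.1, no filter or no trend (adjusted p over all alternatives 0.0335 to 0.121). Plk2 was lost in the midgut without emMidgut replicate 1 or 3 or exMidgut replicate 1, 2 or 4, and with no filter or no trend. The midgut call of Tnfrsf10b was also lost with no filter, and the hindgut call of Perp with no filter or no trend. In the hindgut Perp was lost without emHindgut replicate 3 or 4 or exHindgut replicate 4, Polk without emHindgut replicate 4 or exHindgut replicate 1, and Sesn2 without emHindgut replicate 3.

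Phlda3 shows how the levels lay. Its exMidgut libraries were at 59.7, 83.4, 63.7 and 55.3 TPM and the emMidgut libraries at 16.6, 7.47, 9.92 and 21.6 TPM. In the hindgut the exHindgut libraries were at 147, 91.2, 130 and 243 TPM and the emHindgut libraries at 19.2, 19.9, 17.8 and 28.1 TPM. The exHindgut libraries were all above the exMidgut libraries, and the origin difference was 2.25 (SE 0.30, adjusted p = 5.1e-04) in the midgut and 2.72 (SE 0.25, adjusted p = 8.1e-06) in the hindgut.

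Cdkn1a was at 238, 225, 378 and 279 TPM in exMidgut beside 181, 215, 200 and 223 TPM in emMidgut, a log2 difference of 0.42 (SE 0.15, adjusted p = 0.17). In the hindgut it was at 586, 701, 490 and 541 TPM beside 312, 277, 236 and 199 TPM, a called difference of 1.18 (SE 0.14, adjusted p = 1.4e-04). In both regions all libraries of extraembryonic origin lay above those of embryonic origin. The test of the difference between regions did not pass for Cdkn1a (0.76, SE 0.22, adjusted p = 0.27).

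Over all members that interaction passed for 1 of 35, beside 0.0445% of all genes with a larger and 0.0520% with a smaller difference in the hindgut. Passed or not, 29 of the 35 lay on the side of a larger difference in the hindgut, as did 52.7% of all genes. The median interaction was 0.39 beside 0.03 for all genes. The gene that passed was Ak1, adenylate kinase 1. It was at 21.2, 25.1, 25.5 and 33.6 TPM in exMidgut against 31.4, 24.4, 40.2 and 31.7 TPM in emMidgut, and at 39.3, 49.3, 49.2 and 68.4 TPM in exHindgut against 21.3, 19.7, 20.96 and 20.0 TPM in emHindgut. The regions overlapped by origin only in the midgut, and the interaction was 1.53 (SE 0.29, adjusted p = 0.038). It did not pass with the replicate block (adjusted p = 0.0503) or when any 1 library other than exMidgut replicate 4 was left out.

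**Figure D3:**
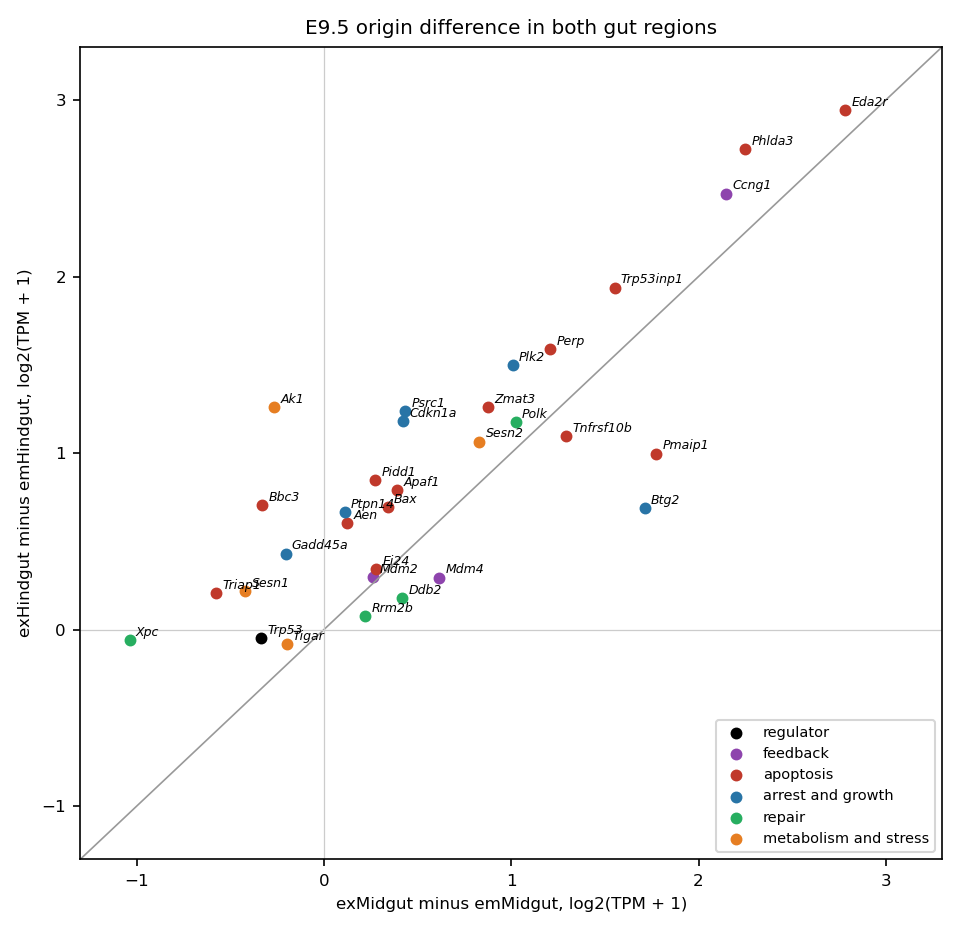
Origin difference in log2(TPM + 1) in the midgut (horizontal axis) and in the hindgut (vertical axis) for the members tested in both regions, coloured by role; the diagonal marks equal differences. Eda2r, Phlda3, Ccng1 and Trp53inp1 lie far from 0 on both axes, and Ak1 lies above 1 on the hindgut axis only.

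At E13.5 the extraembryonic cells carried the Trp53 KO, and the comparison with wild-type embryonic cells asks what is left of the pattern. Of 34 members tested, 1 was called lower (Phlda3) and 0 higher, beside 0.144% and 0.481% of the 12483 genes tested. The members divided evenly, with 17 on each side of 0 and a median of 0.01 beside 0.11 for all genes. In limma, 10 of the 34 members had an unadjusted p under 0.05, as did 11.3% of all genes. The spread was wider at this stage: the median SD of a member within a group was 0.856 on the log2 scale at E13.5, 0.368 at E9.5 and 0.341 at E6.5.

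Trp53 transcript was still present. It was at 42.5, 124 and 122 TPM in exColon and 33.4, 167 and 117 TPM in exSI, against 151, 226 and 245 TPM in emColon and 172, 158 and 201 TPM in emSI. The groups overlapped over both organs, with a log2 difference of -1.11 (SE 0.34, adjusted p = 0.19). With the replicate number as a block the adjusted p was 0.052. Small insertions or deletions can leave a transcript, so its TPM does not check the genotype.

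Phlda3 was at 20.8, 0 and 11.1 TPM in exColon and 0, 0 and 9.77 TPM in exSI. The wild-type embryonic libraries held 50.9, 26.8 and 29.4 TPM in emColon and 58.2, 67.1 and 36.8 TPM in emSI. All 6 KO libraries lay below all 6 wild-type ones, with a log2 difference of -3.53 (SE 0.77, adjusted p = 0.039, and 0.030 with the replicate number as a block). These p-values count the organs of an embryo as separate. The call was lost when emSI replicates 1 and 2, the libraries with collagen transcripts, were left out (adjusted p = 0.268, chosen after seeing the data). It was also lost when any 1 of emColon replicates 1 and 3, emSI replicates 1, 2 and 3, exColon replicate 2 and exSI replicates 1 and 2 was left out, where the adjusted p over all alternatives ran from 0.0121 to 0.268.

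Eda2r was listed at 0 in all 6 KO libraries and in 3 of the 6 wild-type ones, where the highest was 20.3 TPM in emSI replicate 2, and it did not pass the filter for a test. Ccng1 was at 9.95 to 31.2 TPM in the KO libraries (median 13.05) and 16.8 to 46.0 TPM in the wild-type ones (median 21.8), with overlap and no call (log2 difference -0.61, 95% interval -1.43 to 0.22). Bax was below its wild-type range in every KO library, at 257 to 373 TPM against 393 to 653 TPM, but its log2 difference of -0.58 had an adjusted p of 0.098. Members with every KO library below every wild-type library numbered 2, Phlda3 and Bax, and 0 had the reverse, beside 0.481% and 0.681% of all genes.

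Other targets were not called between KO and wild-type cells. Cdkn1a was at 92.4, 83.9 and 119 TPM in exColon and 236, 217 and 368 TPM in exSI. The wild-type libraries held 106, 0.749 and 45.9 TPM in emColon and 236, 376 and 250 TPM in emSI, so the origins overlapped in the small intestine and in the colon. Over both organs the log2 difference was 1.09 with an interval of -0.42 to 2.59 (adjusted p = 0.62), and 0.17 without emColon replicate 2. In the colon alone it was 2.25, and 0.47 without that library. Mdm2 was at 28.6 ± 12.7 TPM in KO and 30.7 ± 19.9 TPM in wild-type libraries (SD, n = 6 libraries each, 3 of each organ; log2 difference -0.01, interval -0.95 to 0.94). Trp53inp1 reached 38.1, 36.9 and 33.1 TPM in exSI beside 6.48, 2.79 and 19.9 TPM in emSI, without overlap, but 12.4, 8.43 and 11.9 TPM in exColon beside 9.27, 6.203 and 15.4 TPM in emColon. Polk was at 11.6 ± 5.50 TPM in KO and 4.44 ± 3.02 TPM in wild-type libraries and was not called (log2 difference 1.30, adjusted p = 0.37).

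By organ, 0 of 31 members were called between exColon and emColon, beside 0.233% of all genes higher and 0.0358% lower, and 4 of the 31 had an unadjusted p under 0.05 in limma, as did 9.90% of all genes. Between exSI and emSI, 1 of 32 was called lower and 0 higher, beside 0.229% and 0.510% of all genes. That gene was Phlda3 again (log2 difference -4.60, SE 0.88, adjusted p = 0.038, and 0.0548 with the replicate block), and leaving out any 1 of emSI replicates 1, 2 and 3 or exSI replicates 1 and 2 removed the call. Phlda3 passed the filter there only through emSI. With 3 libraries against 3, exact permutation cannot go below 0.1. Cdkn2a was at 718 ± 201 TPM in the KO libraries and 19.3 ± 36.5 TPM in the wild-type ones (SD, n = 6 each; log2 difference 6.71, adjusted p = 1.8e-05). Among the yolk sac endoderm genes, Afp and Amn were called higher in the KO libraries. The part of these differences in the values of the p53 targets was not tested.

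**Figure D4:**
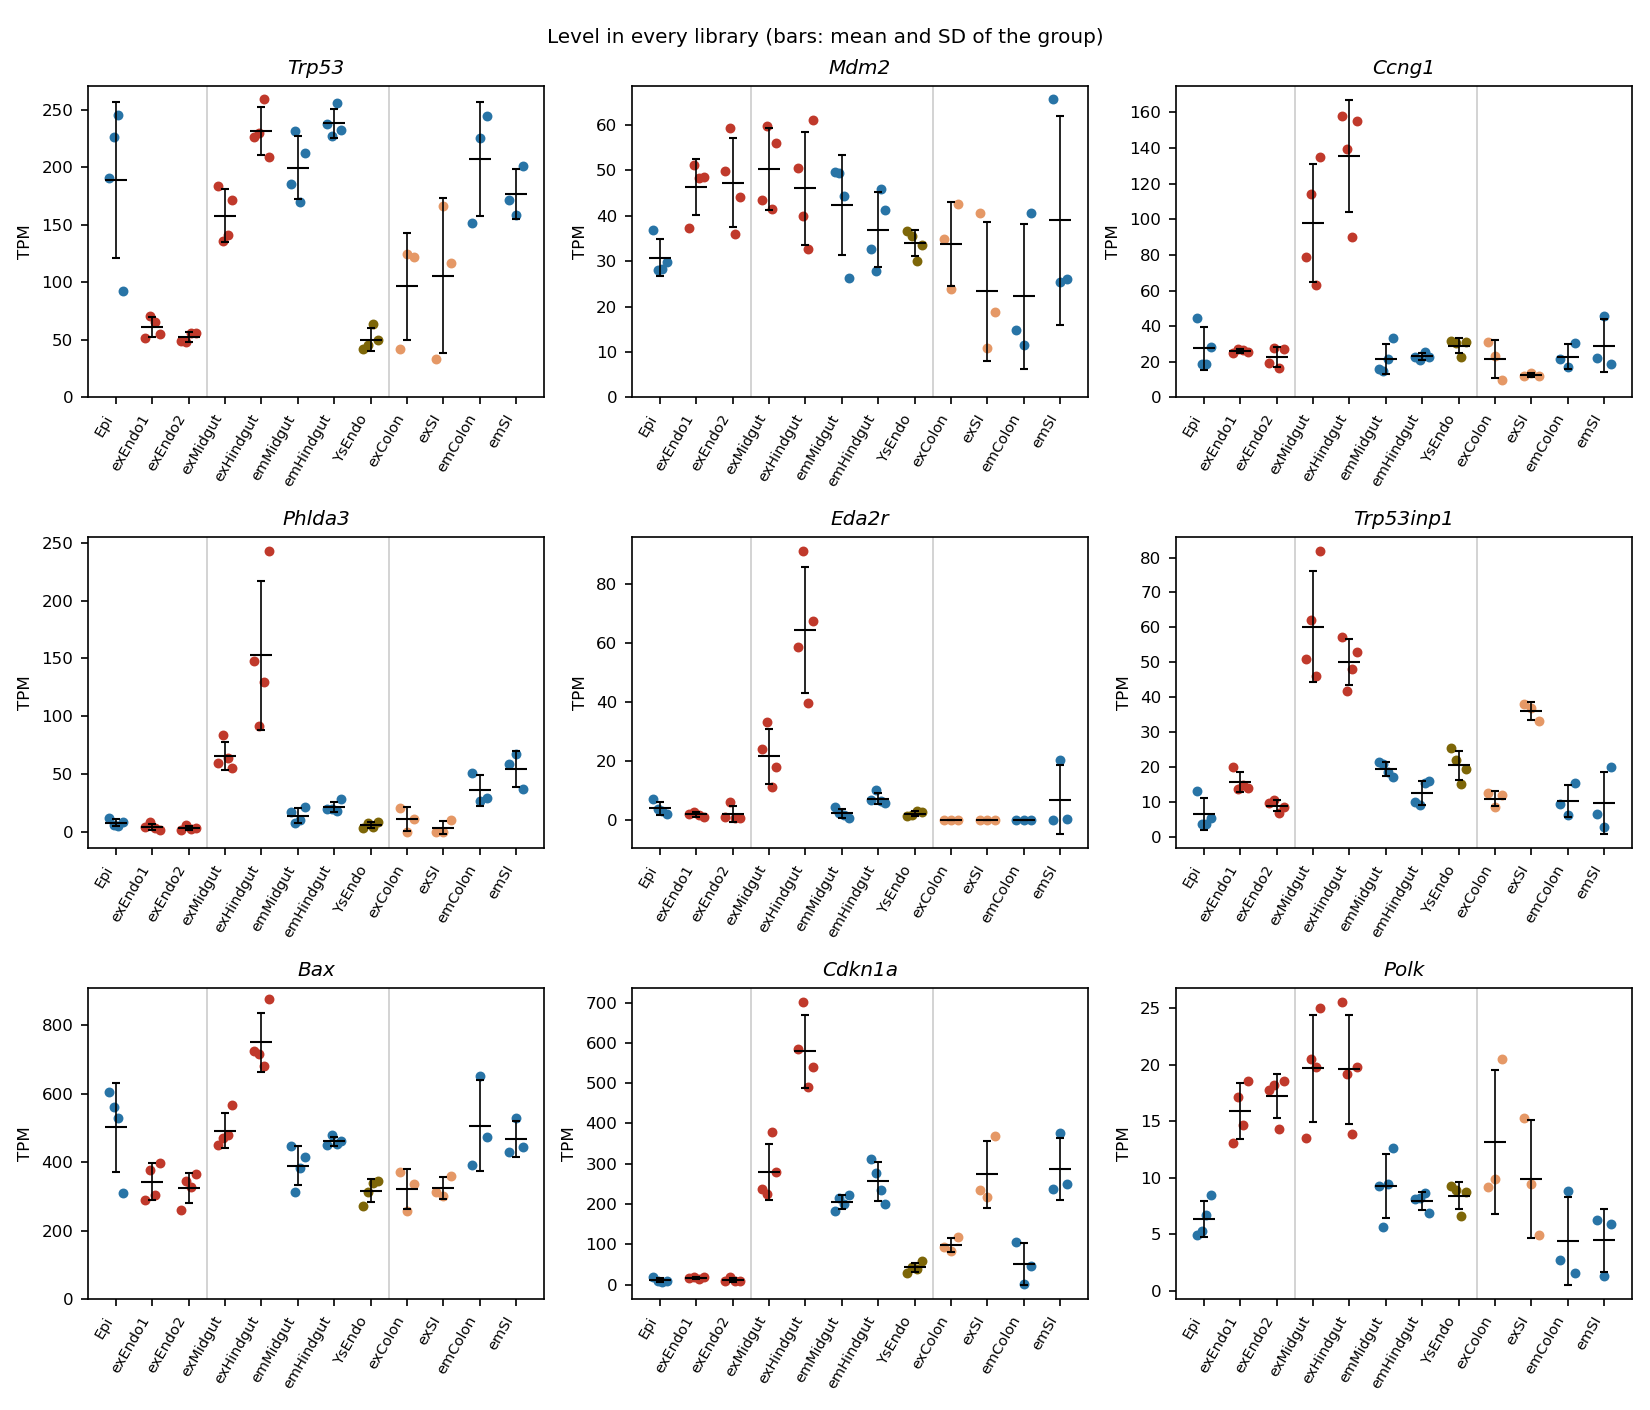
TPM of 9 genes in every library (points) of the 12 groups, with the mean and SD of each group (bars); blue, embryonic; red, wild-type extraembryonic; olive, yolk sac; orange, Trp53 KO extraembryonic; grey lines separate E6.5, E9.5 and E13.5. Ccng1, Phlda3 and Eda2r peak in exMidgut and exHindgut and are at or below the embryonic level in exColon and exSI, whereas Trp53 and Mdm2 have no such peak.

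The direct test of whether the origin difference changed between stages set the E13.5 difference against the E9.5 difference in a single fit. Of the 35 members 6 had a lower and 1 a higher origin difference at E13.5, beside 0.278% and 0.427% of the 14038 genes tested. The change was lower for 27 of 35, with a median of -0.54 beside 0.14 for all genes. Phlda3 changed by -6.01 (SE 0.72, adjusted p = 4.0e-05) and Eda2r by -3.66 (SE 0.67, adjusted p = 0.0062), a fitted value that depends on the pseudocount because Eda2r was listed at 0 in all KO libraries. The value for Phlda3 depends on the pseudocount as well, since 3 of 6 KO libraries were listed at 0. Ccng1 changed by -2.91 (SE 0.36, adjusted p = 4.9e-05).

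Tnfrsf10b changed by -2.12 (SE 0.47, adjusted p = 0.025), Psrc1 by -1.98 (SE 0.43, adjusted p = 0.021) and Bax by -1.10 (SE 0.15, adjusted p = 1.8e-04). Xpc, which recognises helix-distorting damage, changed the other way by 1.59 (SE 0.38, adjusted p = 0.039): at E9.5 it was at 12.1 ± 3.32 TPM in exGut and 18.3 ± 5.12 TPM in emGut, and at E13.5 at 17.2 ± 3.83 TPM in KO and 8.29 ± 3.85 TPM in wild-type libraries. Trp53 (-0.92, adjusted p = 0.25), Mdm2 (-0.29, adjusted p = 0.83) and Cdkn1a (0.28, adjusted p = 0.91) did not pass. By role, 4 of 15 apoptosis genes, 1 of 3 feedback genes, 1 of 7 arrest and growth genes and 0 of 5 metabolism and stress genes had a lower origin difference, and 1 of 4 repair genes a higher one. The Xpc call was lost with median-ratio rescaling and when any 1 of these was left out: all emGut libraries, exHindgut replicates 2, 3 and 4, exMidgut replicates 1 and 2, emSI replicates 1 and 3, exColon replicates 2 and 3, and exSI replicates 1 and 3 (adjusted p over all alternatives 0.01 to 0.0868). That of Tnfrsf10b was lost without exSI replicate 3 or with a pseudocount of 0.1 (adjusted p over all alternatives 0.01 to 0.0737), and that of Psrc1 without emSI replicate 2. Without the emSI libraries that held collagen transcripts 4 calls were left (Ccng1, Bax, Eda2r and Phlda3), and 48 genes in all were called. Stage, organ and genotype all differ between these comparisons, as does the sort of the embryonic cells. These cells were dual-labelled at E9.5 and GFP+ at E13.5. The parts of these differences cannot be told apart.

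Each origin was then followed from E9.5 to E13.5. In the embryonic libraries, wild type at both stages, 1 of 34 members was called higher and 3 lower, beside 2.93% and 17.5% of all genes. With median-ratio rescaling, and also with FPKM, 2 members were called higher and 1 lower, and 2 of these calls were shared with the main fit. Over all genes 1953 were called with the rescaling and 1837 with FPKM, beside 2654 in the main fit. Phlda3 rose from 17.6 ± 6.497 TPM (n = 8) to 44.9 ± 16.4 TPM (n = 6; log2 difference 1.32, SE 0.31, adjusted p = 0.0048). Zmat3 fell by 1.23, Ptpn14, a phosphatase of the Hippo pathway, by 1.59 and Xpc by 1.11 on the log2 scale. Their adjusted p values in limma were 0.042, 0.0057 and 0.012. The Xpc call was lost with median-ratio rescaling, with FPKM and without emColon replicate 3, and the Zmat3 call with those scalings, a pseudocount of 0.1, no filter and without any 1 of all emHindgut libraries, emMidgut replicates 1, 2 and 3, emColon replicates 1 and 2 and emSI replicates 1 and 3. In the extraembryonic libraries, wild type at E9.5 and KO at E13.5, 13 of 35 were called lower and 0 higher, beside 11.7% and 3.53% of all genes.

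The 13 were Trp53, Ccng1, Fas, Tnfrsf10b, Eda2r, Trp53inp1, Phlda3, Zmat3, Cdkn1a, Psrc1, Ptpn14, Sesn2 and Ak1. Eda2r was listed at 0 in all 6 KO libraries and at 11.3 to 91.1 TPM in exGut, so it entered the test only through exGut and no fold is given. The next falls on the log2 scale were 4.69 for Phlda3, 2.81 for Zmat3, 2.77 for Psrc1 and 2.75 for Ccng1. That of Phlda3 depends on the pseudocount, since 3 of 6 KO libraries were listed at 0. Phlda3, Zmat3 and Fas also passed the filter only through exGut. Like that of Eda2r, their calls describe the levels and are no support for the members. With the adjusted p of limma, the log2 differences of the rest were Fas -1.78 (SE 0.51, 0.02), Tnfrsf10b -2.31 (SE 0.39, 6.4e-04), Trp53inp1 -1.40 (SE 0.25, 0.0011), Ptpn14 -1.79 (SE 0.36, 0.0021), Sesn2 -1.28 (SE 0.23, 0.0011) and Ak1 -1.20 (SE 0.38, 0.031). With the replicate block Fas and Ak1 were not called (adjusted p = 0.0544 and 0.0925), and Ak1 was also lost without exColon replicate 1 or 2, exSI replicate 3, exHindgut replicate 2, 3 or 4 or exMidgut replicate 4, and with no filter, median-ratio rescaling or FPKM. Cdkn1a fell by 1.30 (SE 0.34, adjusted p = 0.012), from 430 ± 177 to 186 ± 110 TPM. Mdm2 had an adjusted p of 0.038 but a log2 difference of -0.84, short of the fold threshold (48.1 ± 10.3 against 28.6 ± 12.7 TPM). Trp53 fell by 1.12 (SE 0.30, adjusted p = 0.014), and its call was lost with median-ratio rescaling or FPKM and without exColon replicate 1 or exSI replicate 1. Ptpn14 and Zmat3 were also called lower in the embryonic libraries, the Zmat3 call with the losses given above. The part of stage, organ or genotype in these falls was not tested. Of the 10 immediate early genes, which respond to stress and handling, 6 were called higher at E13.5 in each origin, and their part in these values was not tested. Median-ratio rescaling moved the median of all genes by 0.26 in the embryonic comparison and by 0.16 in the extraembryonic one, and neither Trp53 nor Mdm2 was called in the embryonic libraries.

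The E6.5 libraries show the pathway before gut formation. Between exEndo1, the distal endoderm, and Epi, 6 of 34 members were called higher and 6 lower, beside 19.8% and 13.6% of all genes, so the share was near the background. Trp53 was at 51.9, 70.7, 65.4 and 55.4 TPM in exEndo1 and 191, 226, 245 and 92.7 TPM in Epi, without overlap (log2 difference -1.54, SE 0.26, adjusted p = 3.8e-04). Pmaip1 was at 9.41, 3.28, 2.77 and 5.93 TPM in exEndo1 and 77.4, 68.9, 67.4 and 88.6 TPM in Epi (log2 difference -3.71, SE 0.28). Psrc1, Zmat3, Pidd1 and Bbc3 were also lower in exEndo1, by -3.24, -1.99, -1.14 and -1.13. Perp (2.79), Btg2 (1.86), Gdf15 (1.62), Trp53inp1 (1.32), Polk (1.21) and Plk3 (1.19) were higher. Gdf15 passed the filter only through exEndo1. The adjusted p in limma of these 12 members ran from 9.2e-08 for Psrc1 to 0.0042 for Trp53inp1. With FPKM the calls of Bbc3 and Plk3 were lost. Of the 10 immediate early genes, 7 were called higher in exEndo1 and 0 lower (median log2 difference 2.42), with a summed level of 440 to 825 TPM against 138 to 239.9 TPM in Epi. Their part in the values of the members was not tested.

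In exEndo1 Phlda3 was at 4.35, 7.86, 3.18 and 1.29 TPM, Eda2r at 2.21, 2.88, 1.74 and 0.916 TPM and Ccng1 at 25.1, 27.3, 26.5 and 25.3 TPM. Cdkn1a was at 15.9, 17.9, 12.8 and 17.9 TPM in exEndo1 and 17.7, 8.22, 6.19 and 8.81 TPM in Epi (log2 difference 0.70, adjusted p = 0.039). Mdm2 was at 46.3 ± 6.11 TPM in exEndo1 and 30.8 ± 4.104 in Epi (SD, n = 4 each; log2 difference 0.57, adjusted p = 0.0051). Neither reached the fold threshold.

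Between the distal and the proximal endoderm, exEndo1 and exEndo2, 2 of 34 members were called higher (Perp, 2.54, and Pmaip1, 1.57) and 1 lower (Plk3, -1.47), beside 3.96% and 2.45% of all genes. Their adjusted p values in limma were 0.0026, 0.013 and 0.025, the Pmaip1 and Plk3 calls were lost with no filter, and the Plk3 call also without exEndo1 replicate 2 or 4 or exEndo2 replicate 2. The 3 epiblast genes moved with these calls: 2 were called higher in exEndo1 (median log2 difference 2.56), and their sum was 36.3 to 165 TPM there and 0.160 to 5.98 TPM in exEndo2. Most of that sum was Fgf5, at 32.4 to 154.6 TPM in exEndo1. Pou5f1 was at 2.28 to 21.7 TPM in exEndo1, at most 4.51 TPM in exEndo2 and 1067 to 1852 TPM in Epi, where Pmaip1 was also high. The part of epiblast transcripts in the Pmaip1 call was not tested. Pmaip1 passed the filter only through exEndo1. Of 2 mesenchyme genes tested, 1 was called lower in exEndo1 (median log2 difference -1.52). The 5 genes of that list summed to 6.89 to 15.4 TPM in exEndo1 and 45.1 to 87.8 TPM in exEndo2. Their part in the values of the members was not tested. Perp was at 41.7, 32.4, 16.5 and 37.5 TPM in exEndo1 and 1.39, 4.74, 4.02 and 11.03 TPM in exEndo2, without overlap. Replicate numbers paired these libraries, and with the replicate as a block 5 members were called, the 3 among them, and 5 were also called without exEndo2 replicate 2 or 4. With the block 797 genes in all were called, beside 732 in the main fit. Trp53 (0.21, adjusted p = 0.33), Mdm2 (-0.02, adjusted p = 0.97) and Cdkn1a (0.48, adjusted p = 0.21) were not called.

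Set against yolk sac endoderm, the wild-type extraembryonic cells that stayed outside the embryo, exGut differed in 25 of 35 members: 23 were higher and 2 lower. The background here was large, with 32.3% of all genes higher and 10.0% lower. Of the 10 immediate early genes, 7 were called higher and 1 lower (median log2 difference 3.21), with a summed level of 729 to 2177 TPM in exGut and 133 to 161 TPM in YsEndo, and their part in the values of the members was not tested. Plk2 was at 86.0 to 169 TPM in exGut and 2.28, 2.33, 1.09 and 1.03 TPM in YsEndo, the largest difference among the members (5.55, SE 0.21, adjusted p = 8.9e-11). Psrc1 (4.50), Phlda3 (3.93), Eda2r (3.58), Ak1 (3.42) and Cdkn1a (3.22) followed. Of the other apoptosis genes, Zmat3 (2.67), Pidd1 (2.40), Bbc3 (2.35), Tnfrsf10b (2.22), Apaf1 (2.00), Fas (1.87), Ei24 (1.69) and Trp53inp1 (1.38) were higher. So were Btg2 (2.90), Ptpn14 (2.18) and Gadd45a (1.05) of arrest and growth, Xpc (1.49), Polk (1.11) and Ddb2 (1.07) of repair, and the feedback genes Ccng1 (1.91) and Mdm4 (1.11). The Gadd45a call was lost without YsEndo replicate 2 or exHindgut replicate 2 or 3, and the Ddb2 call without YsEndo replicate 4 or exMidgut replicate 3 or 4. Zmat3, Pidd1, Bbc3 and Fas passed the filter only through exGut.

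Cdkn1a was at 29.8, 44.4, 39.2 and 57.4 TPM in YsEndo, and Ccng1 at 31.8, 30.7, 22.7 and 31.3 TPM, all below the exGut range. Trp53 was also higher in exGut, 195 ± 44.1 TPM against 50.4 ± 9.77 (log2 difference 1.91, SE 0.18, adjusted p = 5.5e-07). Plk3, a polo-like kinase of the stress response, and Tigar, a regulator of glycolysis, were lower in exGut, by -2.47 and -1.96. Plk3 passed the filter only through YsEndo. Mdm2 was not called, at 48.1 ± 10.3 against 33.9 ± 2.89 TPM (log2 difference 0.47, adjusted p = 0.030). Median-ratio rescaling moved the median of all genes by -0.51 in this comparison, after which 20 members were called, the calls of Mdm4, Trp53inp1, Gadd45a, Ddb2 and Polk being lost, and Mdm2 turned to -0.10. With FPKM 21 members were called, and the calls of Mdm4, Gadd45a, Ddb2 and Polk were lost. Over all genes 4977 were called with median-ratio rescaling and 4703 with FPKM, beside 5423 in the main fit.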

How the data were processed

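Poly(A) RNA-seq libraries, 44 in all, were made by the authors with a low-input form of the Smart-RRBS protocol. Those of E9.5 and E13.5 came from small numbers of sorted cells, and those of E6.5 from tissue separated by hand. Per the submitters' processing notes, cutadapt (4.1), STAR (2.7.9a) on the mm10 build and StringTie (2.0.6) produced the tables. The deposited gene tables hold TPM, FPKM and read coverage. TPM was the measure here, the deposited FPKM served as an alternative, and coverage, a signal that is not normalised between libraries, served only to compare sequencing depth. For genes with 1 transcript in GENCODE and over 10 FPKM, the ratio of coverage to FPKM was within 1% of its median for at least 97.3% of genes in each library. Counts per gene were not rebuilt, since the tables give no transcript lengths, and no count model or interval on a single level was computed.

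TPM was summed per gene identifier. Protein-coding genes not on Y with more than 1 TPM in at least 4 libraries (3 within E13.5) were fitted as log2(TPM + 1) with limma (3.58.1, R 4.3.3, eBayes with trend), and p-values were adjusted by Benjamini-Hochberg over all genes tested. Some called members passed this filter only through the group where they were higher, so their calls are a description: Fas over both regions, in the hindgut, against YsEndo and between the extraembryonic stages, Eda2r in the midgut and between those stages, Zmat3 against YsEndo and between those stages, Phlda3 in the small intestine and between those stages, Bbc3, Pidd1 and Plk3 against YsEndo, Gdf15 in exEndo1 against Epi and Pmaip1 in exEndo1 against exEndo2. A fold change on this scale understates the change of low genes. A call needs an adjusted p under 0.05 and a log2 fold change beyond 1, or the adjusted p alone for differences between differences. Each of the 13 comparisons was fitted on its own libraries, with organ or gut region as a covariate where both organs of E13.5 entered without an interaction. Single genes were also tested by exact two-sided permutation (Python 3.11.15, NumPy 2.4.6). The fit was tested on simulated data: of genes given a log2 change of 1.5, 84% were recovered for exGut against emGut at E9.5 (13473 genes) and 35% for KO against wild type at E13.5 (12483 genes). Of genes given a log2 change of 3, 100% and 83% were recovered in these comparisons. The simulated libraries held no difference between midgut and hindgut, which the E9.5 fit leaves in its residual, so recovery in the data can be lower. In the data 316 genes were called for exGut against emGut, and 587 with gut region as a covariate.

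The members, the lists and the tests were chosen with earlier results of these data known. Every called member is named in its comparison with its value, as are Trp53, Mdm2 and Cdkn1a in most, and a member named beyond these was chosen after its values were seen. Alternatives were a pseudocount of 0.1, no filter, median-ratio rescaling, FPKM, no trend, a replicate block, gut region as a covariate, no fold threshold, leaving out each library and, chosen after seeing the data, leaving out libraries with germ cell or collagen transcripts. Replicate numbers paired exEndo1 with exEndo2, where same-numbered libraries deviated together (r from 0.132 to 0.361 over 4 pairs).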

Additional observations from a re-analysis of the deposited data

Results flagged for a closer look

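In 11 of 267 pairs of a member and a group of 4 libraries (4.12%), 1 library stood far from the other 3 by Dixon's criterion, and chance alone gives about 5%. Of the 11, 4 fell in exEndo2 replicate 2, where Cdkn1a was at 19.2 TPM, Ptpn14 at 13.7, Eda2r at 6.23 and Tnfrsf10b at 5.36, each above the other 3 libraries. In exMidgut replicate 4, Triap1 was low at 25.9 TPM and Ptpn14 high at 16.6. The others were Mdm4 in Epi replicate 4 (64.8 TPM), Plk2 in Epi replicate 1 (3.17), Xpc in emHindgut replicate 2 (16.3), Ak1 in YsEndo replicate 2 (2.84), all high, and Ccng1 in YsEndo replicate 3 (22.7), which was low.

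The origin effect differed between comparisons for 8 members by a test of the difference itself. Between hindgut and midgut, Ak1 differed by 1.53 on the log2 scale. Between E13.5, where the extraembryonic cells were Trp53 KO, and E9.5, the origin difference changed by -6.01 for Phlda3, -3.66 for Eda2r, -2.91 for Ccng1, -2.12 for Tnfrsf10b, -1.98 for Psrc1, -1.10 for Bax and 1.59 for Xpc. Stage, organ, genotype and the sort of the embryonic cells cannot be told apart in the last 7. The values for Eda2r and Phlda3 depend on the pseudocount, since all KO libraries were listed at 0 for Eda2r and 3 of 6 for Phlda3.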

How the results depend on the processing

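Of 937 values of single members under an alternative setting, 875 kept their direction and side of the threshold, 53 lost the call, 5 gained it and 4 reversed, and with 1 library left out 1458 of 1592 kept both, 112 lost the call and 22 reversed. These values cover only the called members of each comparison and Trp53, Mdm2 and Cdkn1a. Calls gained by other members are therefore not among the 5. The origin by region interaction had 0 calls with a pseudocount of 0.1, no filter, no trend or the replicate block. KO against wild type at E13.5 had 0 calls with a pseudocount of 0.1, no filter, no trend or without the collagen libraries, and exSI against emSI had 0 with the first 3 of these or the replicate block. The change in origin difference had 4 calls without the collagen libraries, where 48 genes in all were called. exEndo1 against Epi had 24 calls with no fold threshold, beside 7583 of the 12057 genes tested, so most genes were called there as well. exEndo1 against exEndo2 had 1 call with no filter (594 genes in all). It had 5 with the replicate block (797 genes) or with no fold threshold (1582 genes). The cause of these changes was not tested. Counts with 1 library left out, given next, have no share of all genes beside them.

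Mdm2 reversed to -0.10 between exGut and YsEndo with median-ratio rescaling and to 0.39 at E13.5 without the collagen libraries, and Trp53 in the embryonic stage comparison reversed to 0.11 with median-ratio rescaling and to 0.0028 with FPKM. With 1 library left out, calls ranged from 8 to 9 for exGut against emGut, 5 to 7 in the midgut, 11 to 14 in the hindgut, 0 to 1 for the interaction, 11 to 13 for exEndo1 against Epi, 2 to 5 for exEndo1 against exEndo2, 24 to 27 for exGut against YsEndo, 0 to 1 for KO against wild type at E13.5, 0 to 0 in the colon, 0 to 1 in the small intestine, 5 to 8 for the change in origin difference, 3 to 6 for the embryonic stages and 12 to 15 for the extraembryonic stages. Values that crossed 0 in this way were Trp53 in the hindgut (-0.10 to 0.00012), Mdm2 in the interaction (-0.11 to 0.24), in exEndo1 against exEndo2 (-0.14 to 0.099) and at E13.5 (-0.24 to 0.27), and Cdkn1a in the small intestine (-0.31 to 0.13) and in the change in origin difference (-0.60 to 0.88).

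Apart from exEndo1 and exEndo2, same-numbered libraries deviated together little or not at all (r from -0.145 to 0.159). At E13.5 the best match had the same number in 3 of 3 libraries for exColon with emColon, exSI with emSI and exColon with exSI. For emColon with emSI it was 0 of 3. At E9.5 it was 3 of 4, save emMidgut with emHindgut (1 of 4), and for exEndo1 with Epi 0 of 4. Whether numbers mark a shared embryo or pool is therefore not settled. The replicate block gave 8 calls for exGut against emGut (276 genes in all), 7 in the midgut (333), 13 in the hindgut (382), 12 for exEndo1 against Epi (4028) and 25 for exGut against YsEndo (5291). It gave 1 call at E13.5 (93), 0 in the colon (33), 8 for the change in origin difference (151), 4 for the embryonic stages (1964) and 12 for the extraembryonic stages (1387). The wider spread at E13.5 limits what could be called there. The relative depth was 1.39 to 3.298 at E13.5 and 1.0 to 3.41 at E9.5, and both stages used small numbers of sorted cells. The part of depth and of cell number in this spread was not tested.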
